A study of Mus musculus with 2 samples.

Results

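The cornified envelope is the protein shell that replaces the plasma membrane of keratinocytes (KCs) as they die at the skin surface. A set of 8 mouse genes grouped under its formation was followed here in a map of H3K36me3. The genes were *Tgm1*, *Tgm2*, *Tgm3* and *Tgm5* (transglutaminases), *Evpl* and *Ppl* (the plakins envoplakin and periplakin), and *Casp14* and *St14* (the proteases caspase-14 and matriptase). A peak was counted for a gene if the annotation of the peak table named that gene or if at least 1 bp of the peak lay between the start and end of the gene on GRCm38. By this rule 29 of the 45575 peaks belonged to the 8 genes, which are 8 of 21938 protein-coding genes in the annotation used. 27 of these peaks lay on a gene body, and the other 2 were named for a gene but lay off it.

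The peaks came from primary KCs of 10-week-old C57BL/6 mice of the genotype Setd2fl/fl, in which the floxed *Setd2* allele is intact and serves the study as the control. 1 ChIP library and 1 input library were made, and only the peaks of the ChIP library were used, which leaves no replicates, and groups could not be tested. The number of animals is not given in the sources used, the depth of the library is unknown, and a mark on some of the cells cannot be told apart from a weaker mark on all of them. The label of the cells was set beside marker genes. All 10 listed markers of basal KCs had a peak on the body, beside 51.4% of all protein-coding genes (57.9% of those from 5000 bp up). A peak lay on 1 of 8 markers for fibroblasts, 3 of 8 for immune cells, 2 of 7 for melanocytes and 1 of 6 for endothelial cells. Among these other markers, *Postn* of fibroblasts was covered over 72.3%, *Cd52* of immune cells over 89.5%, *Csf1r* over 10.2% and *Cd74* over 7.18%, *Pmel* and *Mitf* of melanocytes over 15.3% and 7.62%, and *Pecam1* of endothelial cells over 0.275%, while *Col1a2*, *Ptprc*, *Tyr* and *Cdh5* had no peak. The part of such cells in the peaks of the 8 genes was not tested. The share of spinous and granular cells was not measured.

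Transglutaminases join proteins through bonds between glutamine and lysine residues, and in the upper epidermis they tie envelope proteins to each other and to lipids. Envoplakin and periplakin are large scaffold proteins that gather under the plasma membrane before the other parts are added. Caspase-14 and matriptase act late, in the processing of profilaggrin. H3K36me3 is placed by SETD2, which travels with elongating RNA polymerase II, and it therefore lies on the bodies of transcribed genes and is scarce at their start sites.

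H3K36me3 peaks lay on 7 of the 8 genes, and the plakin genes were the most fully covered. The share of the gene body inside peaks was 92.8% for *Evpl*, 88.6% for *Ppl*, 55.6% for *St14*, 44.4% for *Tgm1*, 38.2% for *Tgm5*, 21.0% for *Casp14*, 15.1% for *Tgm3* and 0 for *Tgm2*. The scaffold genes thus stood above matriptase, and all 4 transglutaminase genes stood below both. Of all protein-coding genes, 51.4% carried one, and 7 of 8 is to be read against that share. 3 of the 8 genes were covered over at least 50% of the body, as were 23.8% of all protein-coding genes. The median covered share was 41.3% in the 8 genes and 1.07% in all protein-coding genes, or 46.4% in those with a peak. Counting only peaks with a P below 1e-05, the median of the 8 genes fell to 2.41%, with 4 genes marked (24.6% of all protein-coding genes). A peak with a fold enrichment of at least 3 lay on 6 of the 8 (42.6% of all protein-coding genes). With 1 library, no error can be put on the order of the genes.

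**Figure D1:**
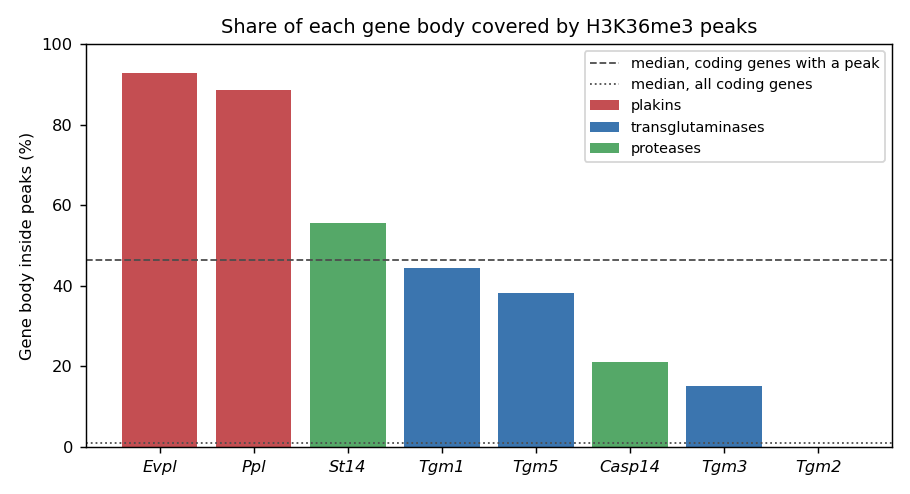
Bars give the percent of each gene body inside H3K36me3 peaks in the 1 ChIP library, coloured by protein family; the dashed line is the median of the coding genes that carry a peak (46.4%) and the dotted line that of all coding genes (1.07%). *Evpl* and *Ppl* stand near 90%, *St14* lies just above the dashed line, and *Tgm2* is at 0.

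The gene maps show where along each gene the peaks lay. None of the 7 marked genes had a peak on the first exon of its longest coding transcript, and none had a peak in the 1500 bp before its start. The last exon was touched in 6 of them, the exception being *Tgm5*. In all 7 genes the exons were covered over a larger share of their bases than the introns, though narrowly in *Tgm1* (47.9% against 45.3%). The matching shares of all coding genes were not computed for these exon counts. The counts are therefore not read as particular to these genes. When each body was split at its midpoint, coverage was higher on the downstream side in 6 genes and equal to the digits given on both sides of *Tgm3* (15.1%). Among all protein-coding genes with a peak and unequal sides, 86.6% had the higher coverage downstream, and the 6 of 6 unequal members are to be read against that.

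**Figure D2:**
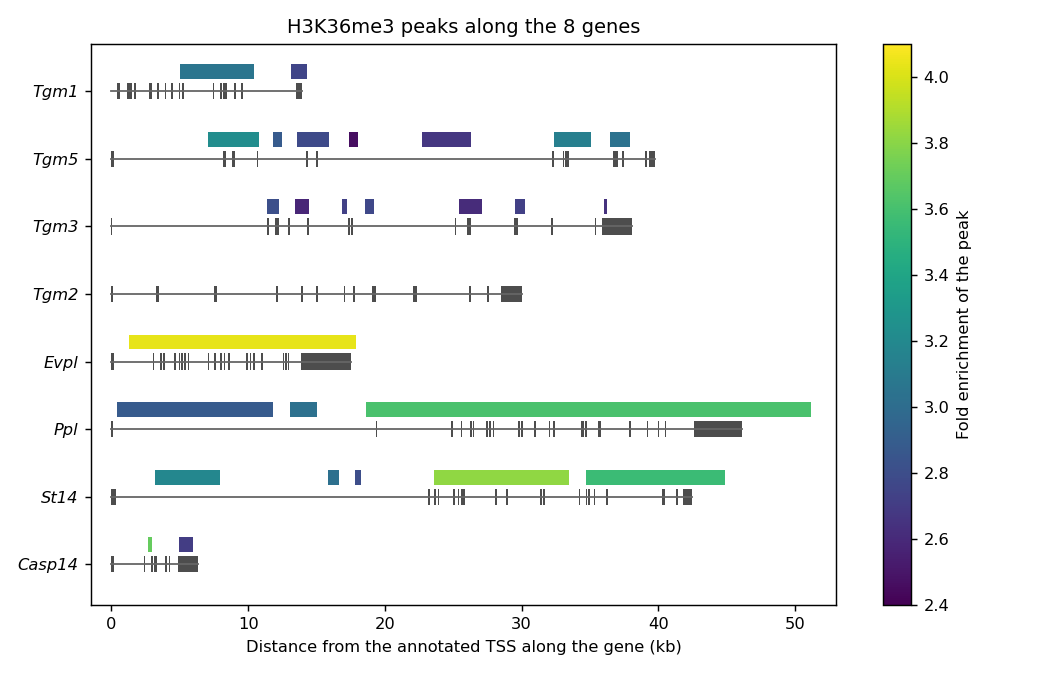
Each grey line is a gene body drawn from its annotated TSS, with exons of the longest coding transcript as dark boxes and H3K36me3 peaks as bars above it, coloured by fold enrichment; the x axis is the distance from the TSS in kb. *Evpl* lies under 1 peak, *Tgm3* and *Tgm5* under 7 separate peaks each, and *Tgm2* under none; the widest *Ppl* peak is drawn only to 5 kb past the gene end.

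*Evpl* (chr11:116220559-116238077, minus strand, 22 exons) lay under 1 broad peak, the one with the highest fold enrichment in the group. The peak (chr11:116220191-116236811) was 16621 bp wide and had a fold enrichment of 4.04, the ratio of ChIP signal to the background set by the peak caller, above that of 99.2% of all peaks in the library. It began 1266 bp after the TSS, held 21 exons whole, all but the first, and ran 368 bp past the gene end. Its −log10 P was 7.09. The covered share of *Evpl* was above that of 99.0% of protein-coding genes, and of 99.0% of those in its own length decile. A second peak named for *Evpl* (chr11:116242775-116255413, fold enrichment 3.67) lay 4698 bp upstream of its TSS and reached into *Srp68*, a gene for a subunit of the signal recognition particle.

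*Ppl* (chr16:5086291-5132421, minus strand, 22 exons) was covered nearly as fully but in 3 pieces of unequal height. The widest peak of the 8 genes, 59201 bp (chr16:5054624-5113824, fold enrichment 3.61), held exons 2 to 22 of *Ppl* and was wider than 99.9% of all peaks. Only 46.5% of it lay on *Ppl*. The rest ran through the neighbouring gene *Ubn1*, which encodes a chromatin protein and is read towards *Ppl* from the other side, and the annotation gave the peak to *Ubn1*. The genes end with 1 base between them, shown here in capitals with 15 bases on each side on the plus strand (chr16:5086275-5086304) because a single unbroken peak crosses this point.
Ubn1 and Ppl ends: ttgaggtttccaagaTgtctttcctcattt
*Ubn1* itself was covered over 90.1%, so the shared peak cannot be split between the genes. The other peaks on *Ppl* lay in its first intron. A peak of 11396 bp with a fold enrichment of 2.88 began 383 bp after the TSS, nearer to a start than in any other of the 7 genes, and one of 1937 bp reached 3.03.

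All 5 of the other plakin genes listed (*Dsp*, *Plec*, *Eppk1*, *Macf1* and *Dst*) had a peak on the body (51.4% of all protein-coding genes), each with at least 1 at a P below 1e-05 (24.6%). They are long, with a median of 61601 bp, and 57.9% of coding genes from 5000 bp up had a peak. *Eppk1*, which encodes epiplakin, a binding partner of keratin filaments, was covered over 66.0% with a highest fold enrichment of 4.83, and *Dst*, which encodes the hemidesmosomal plakin of basal KCs, was covered over 32.3% with a highest fold enrichment of 4.56. In covered share, *Evpl* and *Ppl* lay between desmoplakin (98.6%) and *Eppk1*.

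The transglutaminase genes differed most among themselves. *Tgm1* (chr14:55700009-55713926, minus strand, 15 exons) encodes the membrane-bound enzyme whose loss causes lamellar ichthyosis in humans, and it carried 2 peaks. The first (chr14:55703519-55708902, 5384 bp, fold enrichment 3.06) reached from exon 8, of which 14.4% was covered, to exon 14. The second (chr14:55699657-55700809, 1153 bp, fold enrichment 2.75) held the last exon and ran 352 bp past the gene end. Exons 1 to 7 had no base inside a peak. The annotation lists an antisense gene, *Gm49067*, over 88.2% of *Tgm1*, and a histone mark carries no strand, so both peaks lie on both genes. The nearest coding gene, *Rabggta*, lies 1489 bp beyond the *Tgm1* TSS and its own peak did not reach *Tgm1*.

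*Tgm5* (chr2:121046111-121085841, minus strand, 13 exons), which is mutated in human acral peeling skin syndrome, carried 7 peaks of 648 to 3737 bp, with fold enrichments from 2.46 to 3.23. The highest (chr2:121075068-121078804) held exons 2 to 4, and 3 of the 7 were at 3 or above. The lowest (656 bp, fold enrichment 2.46) was among the weakest of the library, where only 0.250% of peaks were lower. 4 of the 7 peaks were named for *Tgm5* and the other 3 for *Gm14213*, a processed pseudogene of 768 bp that lies inside *Tgm5* and had no peak on its own body. The neighbours of *Tgm5* on both sides are of the same family. *Tgm7* had no peak, and *Epb42*, which encodes an inactive relative that serves the red cell membrane, had 1 peak over 3.64% of its body with a fold enrichment of 3.65, higher than any on *Tgm5*.

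*Tgm3* (chr2:130012349-130050399, plus strand, 13 exons) encodes the epidermal transglutaminase, which also serves the hair follicle. Its 7 peaks were narrow, from 252 to 1701 bp, and all were low. Fold enrichments ran from 2.58 to 2.81, so that none reached the library median of 2.90. The first began 11372 bp after the TSS. They touched 6 of the 13 exons, and 3 of these were covered whole. None of the 7 was named for *Tgm3*. 6 were named for *Mir6339*, a miRNA gene of 117 bp on the opposite strand inside *Tgm3*, and 1 for *Gm22424*, which lies outside *Tgm3*. A search of the table by gene name therefore finds no peak for *Tgm3*, while a search by position finds 7.

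*Tgm2* (chr2:158116402-158146436, minus strand, 13 exons), the tissue transglutaminase found in many organs, was the only member without a peak, named or overlapping. It lay in a stretch of 263849 bp with no peak at all. The nearest peaks were 27019 bp away on one side (310 bp wide, fold enrichment 2.74) and 206795 bp away on the other. The gene model of *Rprd1b*, a regulator of RNA polymerase II, runs into *Tgm2* from the opposite strand over 52.9% of its body. *Rprd1b* carried 7 peaks over 39.4% of its own body, but none reached the part shared with *Tgm2*. In the length decile of *Tgm2*, 65.0% of coding genes had a peak. The list holds only regions above its threshold, so a weaker mark on *Tgm2* was not measured.

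Of 5 further members of the transglutaminase family, 2 had a peak, a share of 40.0% beside 51.4% of all protein-coding genes. *Tgm4*, known from the prostate, had 1 of fold enrichment 2.56 over 3.02% of the body, and the other was that on *Epb42*. *F13a1*, the coagulation factor XIII subunit gene of blood cells, *Tgm6* and *Tgm7* had none. None of the 5 was covered over as much of its body as *Tgm3*.

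The proteases were marked in unlike ways. *St14* (chr9:31089402-31131853, minus strand, 19 exons) encodes matriptase, a membrane-bound serine protease needed for the skin barrier. It had 5 peaks on its body, and the 2 that held its exons were the highest. The peak over exons 3 to 11 (chr9:31098423-31108254, 9832 bp) had a fold enrichment of 3.82, and the peak over exons 13 to 19 (chr9:31086965-31097147, 10183 bp) had one of 3.56 and ran 2437 bp past the gene end. The remaining 3 lay in the first intron, with fold enrichments of 2.80, 3.02 and 3.19. The annotation named the peak at the 3′ end for *Gm16071*, a processed pseudogene of 793 bp inside *St14*, and it named for *St14* a further peak of 384 bp that lay 9980 bp upstream of its TSS. Coverage was 80.5% in the exons and 53.6% in the introns.

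*Casp14* (chr10:78711991-78718294, minus strand, 7 exons), whose product is largely restricted to cornifying epithelia, had 2 narrow peaks. The one at the last exon (chr10:78712352-78713372, 1021 bp) had a fold enrichment of 2.70. The other (chr10:78715296-78715599) was only 304 bp wide and yet had a fold enrichment of 3.70 and a −log10 P of 5.67. Of 5611 peaks of at most 400 bp in the library, whose median fold enrichment was 2.72, 18 (0.321%), itself included, reached its value. The middle 300 bases of this peak (chr10:78715298-78715597 of GRCm38, minus strand) are shown because it is the strongest narrow peak of the group. Capitals mark the 113 bases that belong to exon 3, an exon of 150 bases of which 76.7% lay in the peak.
Casp14 narrow peak: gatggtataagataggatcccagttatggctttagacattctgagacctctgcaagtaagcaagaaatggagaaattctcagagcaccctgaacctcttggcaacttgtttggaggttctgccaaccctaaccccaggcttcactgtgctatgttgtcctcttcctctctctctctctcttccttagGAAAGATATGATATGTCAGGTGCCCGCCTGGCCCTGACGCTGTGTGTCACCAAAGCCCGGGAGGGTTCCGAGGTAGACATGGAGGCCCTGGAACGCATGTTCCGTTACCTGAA
The whole peak matched the genome over its full length at 1 place, and no other alignment at an E value of at most 1e-10 was found. 11.5% of its bases are masked as repeats in the genome sequence, against 19.2% of the *Casp14* body. The part of repeats in the height of the peak was not tested. The coding genes nearest to *Casp14*, *Olfr1357* and *Ccdc105*, had no peak.

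Width and fold enrichment were then set against the whole library. The 27 peaks on the bodies ran from 252 to 59201 bp with a median of 1490 bp, and from a fold enrichment of 2.46 to 4.04 with a median of 2.88. The library medians were 1614 bp and 2.90, so the peaks of these genes as a set were of ordinary size. 15 of the 27 lay below 3. 5 had a P below 1e-05 (12.8% of all peaks did), and they lay on *Evpl*, *Ppl*, *Casp14* and *St14*. That makes 4 of 8 genes beside 24.6% of all protein-coding genes, and the peak on *Ppl* was the one shared with *Ubn1*. No peak on a transglutaminase gene passed that limit.

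**Figure D3:**
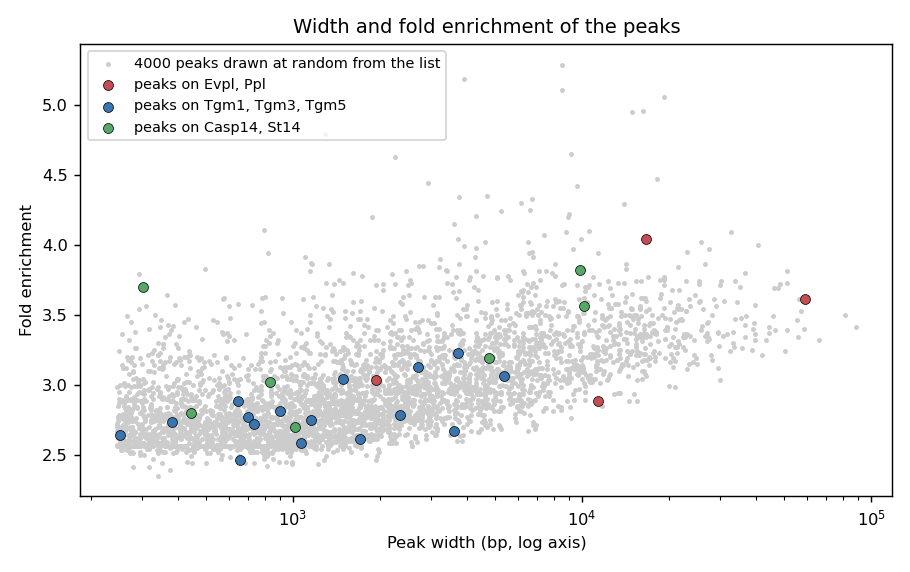
Each point is a peak, with its width in bp on a log axis and its fold enrichment on the y axis; grey points are 4000 peaks drawn from the whole list and coloured points are the 27 on the 7 genes. The *Tgm* peaks stay at or below 3.23, the *Evpl* peak stands at 4.04, and the 304 bp peak on *Casp14* stands apart at 3.70.

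Each body was also cut into 20 bins of equal size. In bin 1, at the TSS, 6 of the 7 marked genes had no base in a peak and *Ppl* had 83.4%, beside a mean of 3.73% over the 10299 marked coding genes no shorter than 5000 bp. From bin 3 on, every bin of *Evpl* was covered whole. In *Tgm1* the bins 9 to 14 were covered whole. In *Tgm3* no bin passed 64.3%. In *Casp14* bins 17 and 18, over the last exon, were covered whole and the first 8 bins were empty.

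**Figure D4:**
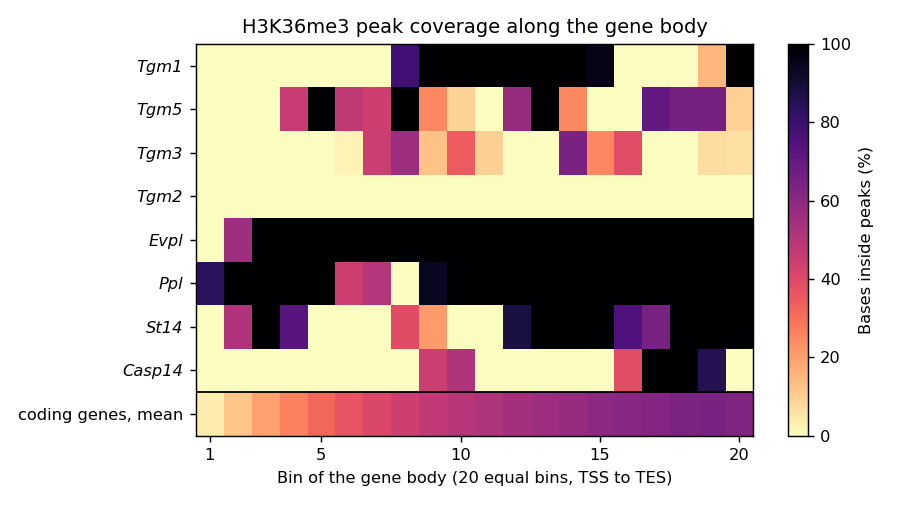
Rows are the 8 genes and, at the bottom, the mean of the 10299 marked coding genes no shorter than 5000 bp; columns are 20 equal bins from TSS to TES and the colour is the percent of bases in each bin inside peaks. *Evpl* is dark from bin 3 to its end, *Tgm3* shows scattered pale bins, and *Tgm2* is empty.

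Because longer genes carried peaks more often, each member was also ranked among coding genes of its own length decile. *Evpl* and *Ppl* lay above 99.0% and 95.9% of them in covered share. *St14* lay above 72.0%, *Casp14* above 68.1%, *Tgm1* above 63.1% and *Tgm5* above 59.2%. *Tgm3* lay above 44.5%, which puts it below the middle of its decile by rank, whose median share was 23.9%. *Casp14* is the shortest member, and only 37.5% of genes in its decile had a peak. The bodies also differed in base composition: GC content ran from 44.3% in *Tgm5* to 57.1% in *Evpl*, and was 52.5% in the unmarked *Tgm2* and 52.1% in *Tgm1*, so that *Tgm2* lay within the range of the marked genes.

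The annotation gave many of these peaks to other genes. It placed 8 of the 27 peaks in the promoter class, which takes peaks near the start of any annotated transcript. None of them touched the first exon of the longest coding transcript of a member. The *St14* peak over exons 3 to 11 was nevertheless at a distance of 0 from a start annotated for *St14*, and first exons of other transcripts were not checked. It named 15 of the 27 for the gene on which they lay and 12 for another gene: 6 for *Mir6339*, 3 for *Gm14213*, and 1 each for *Gm16071*, *Gm22424* and *Ubn1*. By name alone 6 members had a peak (45.4% of all protein-coding genes did), and *Tgm3* was lost.

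Promoter windows from 250 bases before to 50 after the start were available in RefSeq (GRCm38.p6) for 4 members, *Tgm1*, *Tgm3*, *Tgm5* and *Casp14*, with a second window for *Tgm1*. None had a base inside a peak, and neither did most of the 32851 windows in the table, of which 2.38% touched one. The motif TATAAA, searched on both strands, occurred in the *Tgm3* window, at position -28 from the start, and in 13.6% of all windows. The windows of *Tgm3* and *Casp14* (chr2:130012090-130012389, plus strand, and chr10:78718244-78718543, minus strand) are shown because these were the least covered of the marked members, with the motif in capitals where present.
Tgm3 promoter: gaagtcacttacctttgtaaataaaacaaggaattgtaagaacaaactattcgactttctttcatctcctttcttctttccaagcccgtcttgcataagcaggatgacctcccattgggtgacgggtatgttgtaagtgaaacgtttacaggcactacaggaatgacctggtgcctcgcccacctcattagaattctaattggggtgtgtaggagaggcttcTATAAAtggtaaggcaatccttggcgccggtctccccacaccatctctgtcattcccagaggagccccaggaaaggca
Casp14 promoter: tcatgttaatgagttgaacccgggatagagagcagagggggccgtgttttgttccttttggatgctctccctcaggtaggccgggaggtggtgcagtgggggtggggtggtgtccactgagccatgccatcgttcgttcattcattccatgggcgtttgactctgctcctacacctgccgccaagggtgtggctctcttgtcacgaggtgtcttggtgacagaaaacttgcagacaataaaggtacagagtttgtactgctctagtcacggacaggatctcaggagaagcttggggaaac
The motif match is a description of the letters only. The 5 windows held between 3 CpG pairs (*Tgm5*) and 12 (the first of *Tgm1*), with a median of 7 over all windows.

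Early and late differentiation genes were then set side by side. The early list held 16 genes assigned to the spinous layer, with *Tgm1*, *Tgm5*, *Evpl* and *Ppl* among them. The late list held 18 genes assigned to the granular layer and stratum corneum, with *Tgm3*, *Casp14* and *St14*. The layers in which the genes are active were not measured, and genes active in other layers too were not left out. Of the early genes 14 of 16 were marked on the body, and of the late genes 5 of 18 (51.4% of all protein-coding genes). The median covered share was 70.8% in the early list and 0 in the late list. Of the early genes, the suprabasal keratin gene *Krt10* reached 98.4% and *Dsg1a*, a desmosomal cadherin gene, over 91.7%, whereas *Ivl*, the gene for the envelope protein involucrin, and *Calml3*, for a calmodulin-like protein, had no peak on the body. Each of these 2 was nevertheless named for a peak lying elsewhere. Among late genes, *Klk7*, which encodes a protease that frees corneocytes, was covered over 82.8% and *Cdsn*, for the adhesion protein corneodesmosin, over 6.00%. *Flg2*, *Flg*, *Hrnr*, *Krt2* and *Rptn* were the longest without a peak. Most late genes without a peak, from *Lor* to *Rptn*, lie in a single region of chromosome 3 (92080271 to 93399442). The unmarked early gene *Ivl* lies there too. The part of this shared region in the contrast between the lists was not tested. How uniquely reads map to the genes of either list was not measured, so a gene without a peak is not shown to lack the mark.

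At a P below 1e-05 the counts fell to 6 of 16 early and 2 of 18 late genes (24.6% of all protein-coding genes), and the 2 late genes were *Casp14* and *St14*. The 3 members of the late list were 3 of its 5 marked genes. Without the 8 members, 10 of 12 early genes and 2 of 15 late genes had a peak. Gene length moved with the lists. The median length was 15613 bp in the early list and 5059 bp in the late list, and of protein-coding genes under 5000 bp 23.4% had a peak, against 57.9% of longer ones. Among genes of at least 5000 bp, 10 of 10 early and 5 of 10 late genes had a peak, and among shorter genes 4 of 6 and 0 of 8 did. The early list had the larger share in both length classes. Within each class the early genes still tended to be longer than the late ones, so the split did not make length equal. No test was made, since genes of 1 library are not replicates. Within the 7 marked members the order was not split by stage: *St14* (late, 55.6%) lay above *Tgm1* and *Tgm5* (early, 44.4% and 38.2%), while *Casp14* and *Tgm3* lay lowest.

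**Figure D5:**
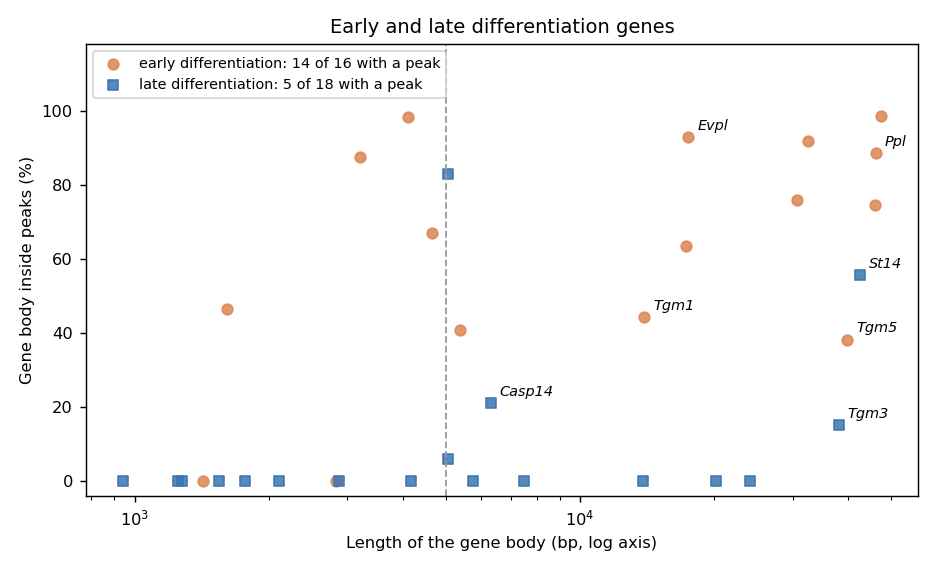
Each point is a gene of the early (circles) or late (squares) differentiation list, with the length of its body in bp on a log axis and the percent of the body inside peaks on the y axis; the dashed line stands at 5000 bp. All late genes shorter than 5000 bp lie at 0, while 5 of the 10 longer ones have a peak. The longest late gene at 0 has 24114 bp, and the members are named.

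Of the 14 listed genes for envelope substrates, the proteins that transglutaminases join, 5 had a peak (51.4% of all protein-coding genes): *S100a11* (88.5% covered), *Anxa1* (88.3%), *S100a10* and *Sprr1a* (77.9% each) and *Cstb* (54.4%). *S100a10*, *S100a11* and *Anxa1* encode S100 proteins and annexin A1, found in many cell types, *Cstb* encodes a cystatin, and *Sprr1a* encodes a small proline-rich protein of the envelope. *Ivl*, *Lor*, *Rptn*, *Tchh* and *Sprr2a1* were the longest without a peak on the body. Of the 8 substrate genes under 5000 bp 2 had a peak (23.4% of coding genes of that length), and of the 6 longer ones 3 did (57.9%), both near the shares of all coding genes. *Sprr* genes are near copies of each other, so reads on them may not map to 1 place and their values are uncertain.

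Of 15 listed genes of the protease network around *St14*, 12 carried a peak (51.4% of all protein-coding genes) and 10 were covered over at least 50% of the body (23.8%). *Spint1*, which encodes an inhibitor of matriptase, was covered over 74.6%, and *Spink5*, which encodes the kallikrein inhibitor lost in Netherton syndrome, over 70.2%. *Ctsd*, a lysosomal protease gene, was covered over 86.8% and *Blmh*, which encodes a hydrolase that helps degrade filaggrin, over 61.7%. *Prss8*, a gene of the list singled out after its values were seen, encodes prostasin, a substrate of matriptase, and was covered over 59.4% with a fold enrichment of 3.31. *Klk6*, *Klk14* and *Asprv1*, which encodes a protease of the stratum corneum that cleaves filaggrin, had no peak.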

How the data were processed

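H3K36me3 ChIP-seq was performed on primary KCs, with 1 ChIP and 1 input library, and the annotated peaks of the ChIP library were used. The authors removed adapters and poor reads with Cutadapt and Trimmomatic, aligned reads with Bowtie2 2.2.6 to GRCm38, called peaks with MACS2 2.1.1 at a stated P-value of 0.01 and annotated them with ChIPseeker; tool versions are from the submitters' processing notes. Whether the input was the control was not stated in the sources used. The deposited fold enrichment is a ratio of signal to background, the deposited P and q are −log10 values, and the deposited distance to the TSS is a signed score in bp. The smallest −log10 q was 1.31.

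Genes came from GENCODE vM21 on GRCm38 (21938 protein-coding genes on autosomes, X and Y), and all listed symbols were found in it. A gene body ran from annotated start to end, and the covered share is the percent of it inside peaks. Percentiles give the share of protein-coding genes with a lower covered share. Members and lists were chosen with earlier results of these data known, and the lists were written from general knowledge of the epidermis. Named genes were the members, genes sharing or neighbouring their peaks, and up to 5 of the most covered and 5 of the longest unmarked genes of each list. The values of 1 listed gene are not reported here. Sequences were from RefSeq (GRCm38.p6), and matches elsewhere were sought with blastn of BLAST+ 2.17.0 at an E value of at most 1e-10. Interval counts were tested on simulated data. Alternatives were a P below 1e-05, a minimum fold enrichment of 3, peaks merged over gaps of 1000 bp and an overlap of 500 bp. Further ones were transcripts as bodies, bases outside other protein-coding genes, assigned names, and lists without the members. Python 3.11.15, NumPy 2.4.6, pandas 2.3.3 and matplotlib 3.10.9 were used.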

Additional observations from a re-analysis of the deposited data

How the results depend on the processing

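At a P below 1e-05, 4 of 8 members, 6 of 16 early genes and 2 of 18 late genes were marked (24.6% of all protein-coding genes), and the median covered share of the members was 2.41%. It was 29.3% at a fold enrichment of at least 3 and 42.1% with the longest coding transcript as the body. Without the 8 cornified envelope genes, 2 of 15 late genes had a peak. At the stricter P, *Evpl* kept 92.8% of its body covered, *Ppl* 59.7%, *St14* 41.4% and *Casp14* 4.82%, and *Tgm1*, *Tgm3* and *Tgm5* had none. The share of *Ppl* came only from the peak that it shares with *Ubn1*. The other counts stayed within 1.5 times of those reported, and the median was 41.3% with merged peaks and outside other protein-coding genes. The last setting could not change the median, since *Tgm2*, which had no peak, is the only member that overlaps such a gene. The antisense gene *Gm49067* over *Tgm1* was not removed. The restriction to genes of at least 5000 bp was chosen after the data had been seen. Depth is unknown and no input values were used, so marks below the peak threshold were not measured. No paired analysis was possible because the table holds 1 library.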

Other observations

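Of 12 listed genes that supply or attach the lipids of the envelope, 11 carried a peak (51.4% of all protein-coding genes). Of the 11 that were at least 5000 bp long, 10 did (57.9%). At a P below 1e-05 only 3 of the 12 were marked, near the 24.6% of all protein-coding genes. The median covered share of the 12 was 43.5%, beside 46.4% in coding genes with a peak. *Abca12*, the lipid transporter gene of lamellar granules, was covered over 63.9% and *Abhd5*, the lipase activator gene of Chanarin-Dorfman syndrome, over 56.7%. *Elovl4*, for elongation of very long fatty acids, was covered over 48.3% with a highest fold enrichment of 4.15. *Alox12b*, a lipoxygenase gene of the same route, had no peak.

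8 of 9 other caspase genes had a peak (51.4% of all protein-coding genes), among them *Casp2* (85.7% covered), *Casp9* (64.2%) and *Casp8* (57.4%), which all act in apoptosis, and *Casp12* had none on its body. 5 of the 9 were covered over at least 50% (23.8% of all protein-coding genes). At a P below 1e-05 only 1 of the 9, *Casp8*, was marked (24.6% of all protein-coding genes), while *Casp14* was marked at that limit. All 9 are at least 5000 bp long, and 57.9% of coding genes of that length had a peak. Their median length was 22399 bp, whereas *Casp14*, covered over 21.0%, is 6304 bp long.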
